A study of Homo sapiens with 2 samples.

Results

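Nucleotidases, nucleoside and nucleotide deaminases and SAMHD1 are the enzymes that take nucleosides and their phosphates apart. The 10 genes described here are the nucleotidases NT5E, NT5C, NT5C2, NT5C3A, NT5C3B and NT5M, the deaminases CDA, DCTD and ADA, and the triphosphohydrolase SAMHD1. They were chosen by function, as the rows of the deposited gene table that carry these symbols, and make up 10 of its 30856 rows. Polyadenylated RNA was sequenced from THP-1, an established human acute monocytic leukaemia cell line, in 1 library of cytarabine-resistant cells and 1 library of parental cells. The resistant cells had been selected by raising cytarabine (Ara-C) in steps, starting at 5 nM and ending at 10 µM, until they doubled as fast as the untreated line. The parental cells were untreated, and both were grown in the same medium with serum. The labels do not say whether the resistant cells are a clone or a mixed population, nor whether the drug was present when RNA was taken.

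Cytarabine is an analogue of deoxycytidine and a mainstay of treatment for acute myeloid leukaemia. Cells take it up through a nucleoside transporter, deoxycytidine kinase (DCK) adds the first phosphate, and further kinases build the triphosphate that is incorporated into DNA. Each stage has an opposing enzyme: CDA deaminates the nucleoside to an inactive uridine form, DCTD deaminates the monophosphate, cytosolic nucleotidases can remove the phosphate, and SAMHD1 hydrolyses the triphosphate. NT5E and ADA instead act mainly on adenosine metabolism, NT5E by making adenosine outside the cell and ADA by deaminating it.

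The resistant library held 58285463 counts and the parental library 57434972 counts. Mitochondrial genes took 5.92% and 5.96% of them in resistant cells and parental cells. Of 11 leukocyte and myeloid markers, 10 reached 1 FPKM (fragments per kilobase of transcript, scaled to library size) in at least 1 library, among them CD33 (11.1 in resistant cells and 11.9 in parental cells) and SPI1 (62.3 and 64.4). CD14, a marker of mature monocytes, had 4 counts in resistant cells and 56 in parental cells, and LYZ, the lysozyme gene, stood at 95.8 and 225 FPKM. The 11 markers summed to 295 FPKM in resistant cells and 417 FPKM in parental cells, but without LYZ the other 10 summed to 199 FPKM in resistant cells and 192 FPKM in parental cells. After adding 1 FPKM, 3 of them (LYZ, MPO and CSF1R) were at least 1.5-fold lower in resistant cells. Another 3 were higher in resistant cells, FCGR1A (41.2 FPKM in resistant cells and 29.6 in parental cells), CD4 (28.25 and 21.99) and PTPRC (15.4 and 14.3). Their part in the differences below was not tested. Of 19 markers of other lineages, 12 had a row, PECAM1, which monocytes also express, and NCAM1 reached 1 FPKM, and CD8A and VWF had 0 counts in both libraries. There was 1 library per condition, so no test between conditions was possible. Intervals given below are 95% intervals that cover counting error only, and they say nothing of the spread between cultures.

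As a group, the 10 genes differed little between resistant and parental cells, and the exceptions were at low levels. NT5E was about 2-fold higher in resistant cells, and NT5M, the mitochondrial deoxynucleotidase, was 1.69-fold lower. Among the enzymes that act on cytarabine or its phosphates, CDA and NT5C2 were at nearly the same level in both libraries, DCTD was slightly higher and SAMHD1 slightly lower in resistant cells. The cytosolic nucleotidases NT5C and NT5C3B were 1.29-fold higher and 1.24-fold lower in resistant cells, and the fold of NT5C3A was 0.976. All 10 genes reached 1 FPKM in at least 1 library, NT5M in parental cells only. So did 11356 of the genes with an approved symbol, called expressed genes below. On the scale of log2((FPKM + 1) resistant / (FPKM + 1) parental), 0 of the 10 genes passed 2-fold on the higher side and 0 on the lower side, against 0.616% and 1.22% of all expressed genes. At 1.5-fold on that scale, 1 of the 10 was higher (NT5E) and 0 were lower, against 2.89% and 4.76% of expressed genes.

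The median log2 ratio of the 10 genes was -0.02, and that of all expressed genes was also -0.02. There were 4 genes above 0 and 6 below, and 46.3% of expressed genes lay above 0. The added pseudocount of 1 FPKM shrinks the differences of low genes. Log2 ratios below, and counts of genes past 2-fold in other groups of genes, keep that scale unless stated. Each fold given for a gene below instead divides the share of the library's counts that fell on the gene, resistant over parental, with no pseudocount. On this scale 1 gene passed 2-fold on the higher side (2.06% of expressed genes did) and 0 on the lower side (3.54%). At 1.5-fold, 1 gene was higher and 1 lower, against 5.38% and 8.33% of expressed genes. The counting interval lay above equal levels for 3 genes and below for 4, against 33.7% and 39.1% of expressed genes. In all, 7 of 10 intervals excluded equal levels, where 72.8% of expressed genes did. The interval shares are close to those of all expressed genes, while 1 gene of 10 is too few to set against the shares past a fold.

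**Figure D1:**
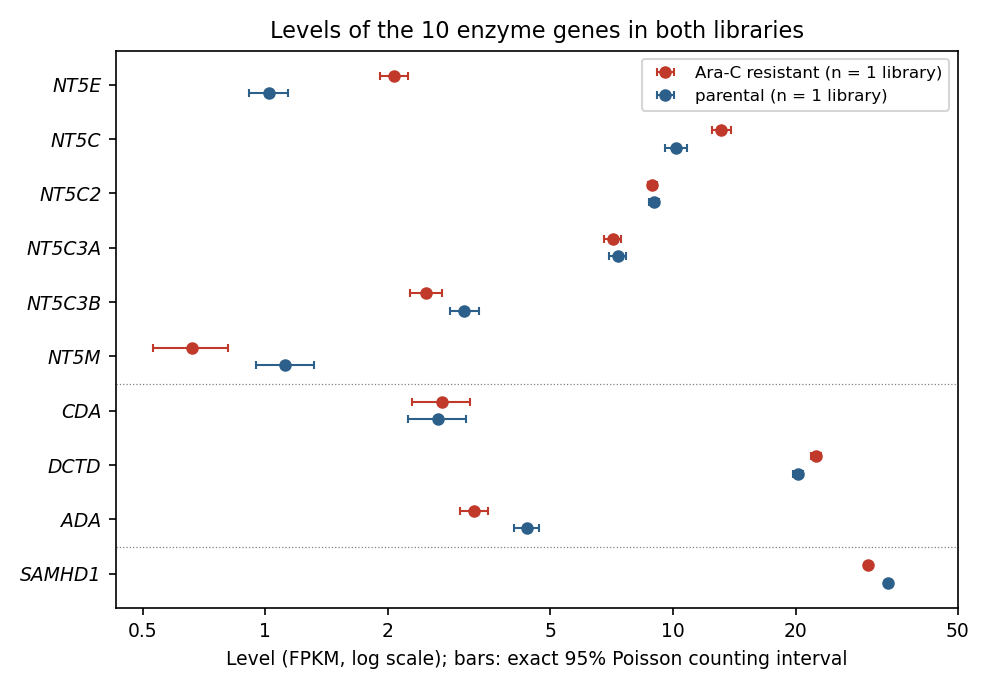
Levels of the 10 genes in FPKM on a log axis, with resistant cells (red) drawn above parental cells (blue) for each gene. Points are single libraries, bars are exact 95% Poisson counting intervals, and dotted lines part nucleotidases, deaminases and SAMHD1. SAMHD1 and DCTD are the highest genes in both libraries, and NT5E and NT5M change places at the bottom.

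The nucleotidases fall into an enzyme of the cell surface, several of the cytosol and 1 of mitochondria. NT5E encodes the ecto-nucleotidase CD73, which is anchored at the cell surface and turns extracellular AMP into adenosine. It lies on the plus strand of chromosome 6 from 85449584 to 85495791 (GRCh38, as are all coordinates below). It had 638 counts (2.07 FPKM) in resistant cells, against 311 counts (1.02 FPKM) in parental cells. Resistant cells were thus 2.02-fold higher by counts (1.76 to 2.32), the largest fold of the 10 genes in either direction. Of the 3267 expressed genes whose mean level lay within 2-fold of that of NT5E, 4.01% had a fold at least as high. In RNA from bulk cells, a higher level in every cell and a larger share of cells with NT5E cannot be told apart.

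NT5C encodes a cytosolic deoxynucleotidase that removes phosphate from deoxynucleoside monophosphates and lies on the minus strand of chromosome 17 from 75130225 to 75131744. Its level was 13.1 FPKM in resistant cells from 1374 counts, and 10.2 FPKM in parental cells from 1048 counts. This was 1.29-fold higher (1.19 to 1.40), and 7.50% of 4200 expressed genes of similar level had a fold at least as high. NT5M, its mitochondrial counterpart, lies on the plus strand of the same chromosome from 17303335 to 17347661. It went the other way, with 89 counts (0.66 FPKM) in resistant cells and 148 counts (1.12 FPKM) in parental cells. That was 1.69-fold lower (1.29 to 2.22), and NT5M reached 1 FPKM in parental cells only. Of 1790 expressed genes of similar level, 19.1% had a fold at least as low. Genes with a mean below 1 FPKM enter that set only where 1 library reached 1 FPKM, so the share is not a fair background for NT5M. The lowest part of the set used for NT5E has the same limit. NT5C stood at 19.9 times the FPKM of NT5M in resistant cells and at 9.10 times in parental cells. The ratio of their folds was 2.18 (1.66 to 2.87). The counting intervals of these related genes lie on opposite sides of equal levels, where 33.7% of expressed genes lie above and 39.1% below.

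The cytosolic pair NT5C3A and NT5C3B differed less. NT5C3A, on the minus strand of chromosome 7 from 33014114 to 33062797, encodes the pyrimidine nucleotidase whose loss causes a haemolytic anaemia. It had 1693 counts (7.13 FPKM) in resistant cells and 1709 counts (7.32 FPKM) in parental cells, a fold of 0.976 (0.912 to 1.04). NT5C3B encodes a nucleotidase that also acts on the methylated guanosine monophosphate left when messenger RNA caps are broken down. It lies on the minus strand of chromosome 17 from 41825057 to 41836258. Its 482 counts (2.48 FPKM) in resistant cells stood against 590 counts (3.08 FPKM) in parental cells, 1.24-fold lower (1.10 to 1.40). The fold of NT5C3A was 1.21 times that of NT5C3B (1.06 to 1.39). For NT5C3B, 22.0% of 4183 expressed genes of similar level had a fold at least as low.

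Reads can be shared between related genes, so the closest stretches of these pairs are shown, from coding sequences of GENCODE release 29. NT5C and NT5M were 69.9% identical over 591 aligned coding bases, and their longest identical run was 23 bases. Their most similar 60 bases, both in exon 1, differ at 10 positions, written in capitals (5′ to 3′ on the coding strand). NT5C is read at chr17:75131635-75131694 (minus strand) and NT5M at chr17:17303657-17303716 (plus strand).
NT5C: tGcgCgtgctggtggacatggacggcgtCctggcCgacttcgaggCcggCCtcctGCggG
NT5M: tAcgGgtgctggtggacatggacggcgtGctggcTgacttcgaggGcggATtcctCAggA
NT5C3A and NT5C3B were 62.7% identical over 864 aligned bases, with a longest identical run of 15 bases. Their most similar 60 bases, both in exon 7 of 9, differ at 16 positions. NT5C3A is read at chr7:33017500-33017559 and NT5C3B at chr17:41828851-41828910, both on the minus strand.
NT5C3A: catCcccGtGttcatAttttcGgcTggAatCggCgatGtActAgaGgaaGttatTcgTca
NT5C3B: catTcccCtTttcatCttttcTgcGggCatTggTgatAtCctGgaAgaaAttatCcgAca
For the transcript with the longest coding sequence of each gene, 0 stretches of 50 bases of NT5E, NT5C, NT5C3B, NT5M, CDA, DCTD or ADA also occurred in a GENCODE transcript of another gene. NT5C3A was the exception, with 363 of 1655 such stretches (21.9%) shared with its pseudogene NT5C3AP1 or with another gene. The pseudogene had 54 counts in resistant cells and 49 in parental cells. NT5C2 (14 of 3386) and SAMHD1 (31 of 5249) shared few. How reads that map to several places were counted is not given in the sources used here. In the transcripts checked, NT5C3A had the largest share of such stretches. Sequence outside those transcripts was not compared, so the 10 genes cannot be ranked in full in this respect.

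NT5C2 encodes the cytosolic nucleotidase that prefers the purine monophosphates IMP and GMP and is known for activating mutations in relapsed lymphoblastic leukaemia. It lies on the minus strand of chromosome 10 from 103087185 to 103277605 as deposited, a wider span than the 103088017 to 103193306 of GENCODE release 29. It had 5522 counts (8.90 FPKM) in resistant cells and 5490 counts (8.99 FPKM) in parental cells. The fold was 0.991 and its interval, 0.955 to 1.03, is among the narrowest of the group. A difference of more than 5% either way thus lies outside the counting error, while the spread between cultures is unknown.

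Within the nucleotidases, the summed level was 34.4 FPKM in resistant cells and 31.7 FPKM in parental cells. NT5C made up 38.2% of this sum in resistant cells and 32.1% in parental cells, and NT5C2 25.9% and 28.3%. NT5E took 6.02% in resistant cells and 3.22% in parental cells. Among the nucleotidases described here, the cytosolic enzymes therefore made up most of the summed FPKM in both libraries. Other nucleotidase genes were not part of the sum, and the shares depend on the lengths that FPKM divides by.

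**Figure D2:**
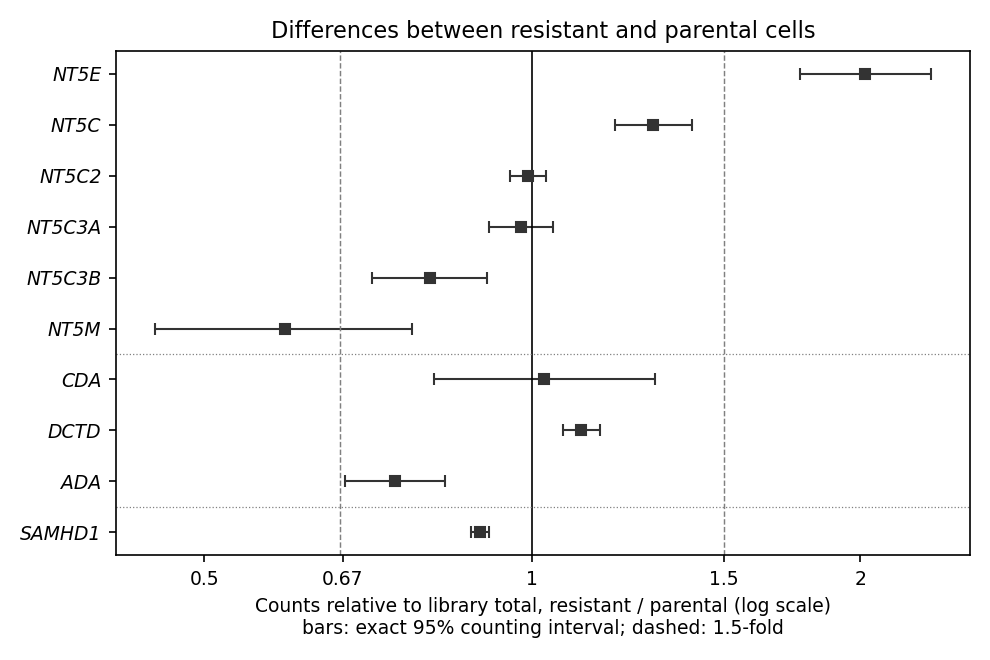
Counts relative to the library total in resistant cells divided by those in parental cells, on a log axis, for each of the 10 genes. Squares are the ratio of 1 library to 1 library, bars are exact 95% counting intervals and dashed lines mark 1.5-fold. NT5E lies beyond the upper dashed line with its whole interval, and the interval of NT5M crosses the lower one.

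Among the deaminases, the enzyme known for inactivating cytarabine itself was at nearly the same level in both libraries, with a wide counting error. CDA, cytidine deaminase, lies on the plus strand of chromosome 1 from 20589086 to 20618903. It had 152 counts (2.71 FPKM) in resistant cells and 146 counts (2.65 FPKM) in parental cells. The fold was 1.03 (0.812 to 1.30).

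DCTD, deoxycytidylate deaminase, turns dCMP into dUMP and so feeds thymidylate synthesis. It lies on the minus strand of chromosome 4 from 182890060 to 182917594. It stood at 22.5 FPKM in resistant cells from 5287 counts and at 20.3 FPKM in parental cells from 4697 counts. The fold was 1.11 (1.07 to 1.15), and 23.2% of 2903 expressed genes of similar level had a fold at least as high. DCTD was far above CDA per length: the level of CDA was 0.121 times that of DCTD in resistant cells and 0.131 times in parental cells.

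ADA, adenosine deaminase, whose loss causes a severe combined immunodeficiency, lies on the minus strand of chromosome 20 from 44619522 to 44652114. It had 624 counts (3.26 FPKM) in resistant cells and 822 counts (4.38 FPKM) in parental cells. This was 1.34-fold lower (1.20 to 1.49), and 13.0% of 4568 expressed genes of similar level had a fold at least as low. NT5E, which makes extracellular adenosine, was higher and ADA, which removes adenosine, lower in the resistant library. ADK, the adenosine kinase gene, was higher (13.9 FPKM in resistant cells and 11.4 in parental cells, fold 1.22, 1.17 to 1.28). It was named after its value was seen. What these differences mean for adenosine was not tested.

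SAMHD1 hydrolyses deoxynucleoside triphosphates, limits viral replication in myeloid cells and hydrolyses the active triphosphate of cytarabine. It lies on the minus strand of chromosome 20 from 36890229 to 36951843 and was the most abundant of the 10 genes. Resistant cells had 22001 counts (30.2 FPKM) and parental cells 24214 counts (33.8 FPKM). It was 1.12-fold lower (1.10 to 1.14), a small difference with a narrow interval because of its many reads. Of 1966 expressed genes of similar level, 22.3% had a fold at least as low.

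**Figure D3:**
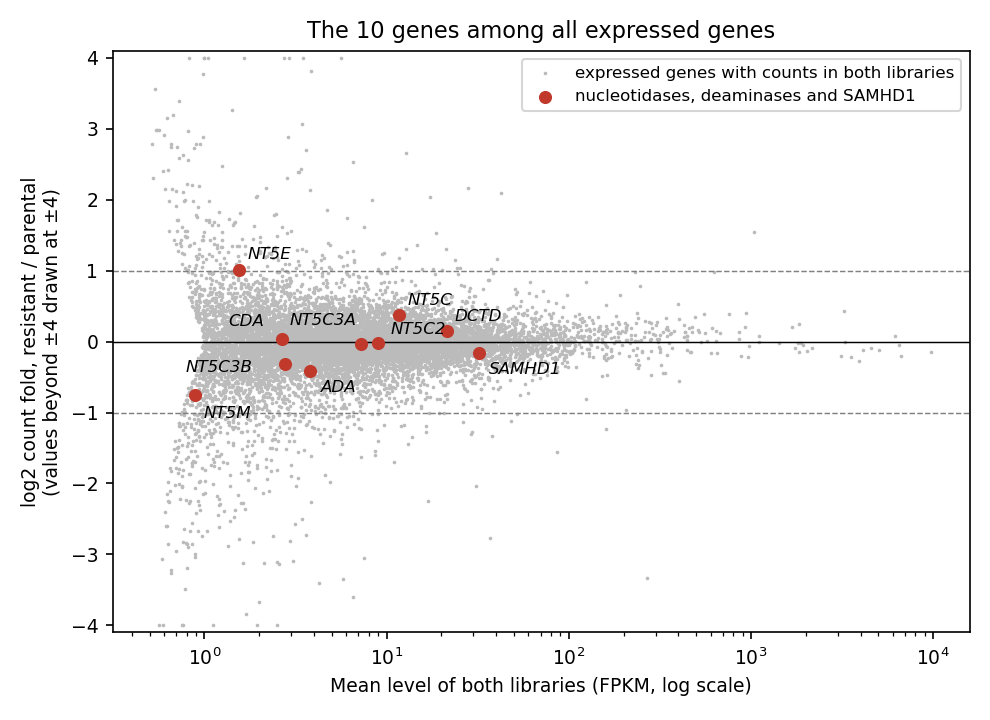
Log2 count fold between resistant and parental cells against the mean level of both libraries (FPKM, log axis) for expressed genes with counts in both libraries (grey) and the 10 enzyme genes (red). Dashed lines mark 2-fold, and values beyond 4 on either side are drawn at the edge. NT5E sits at the upper dashed line and NT5M above the lower one. The other 8 genes lie between a 1.34-fold lower (ADA) and a 1.29-fold higher (NT5C) value.

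The genes spanned a wide range of levels. SAMHD1 stood at 45.7 times the FPKM of the lowest gene, NT5M, in resistant cells and at 33.1 times that of the lowest, NT5E, in parental cells. The order from the top was SAMHD1, DCTD, NT5C, NT5C2, NT5C3A and ADA in both libraries. In resistant cells CDA, NT5C3B, NT5E and NT5M followed, and the counting intervals of the neighbours ADA and CDA, and of CDA and NT5C3B, overlapped. In parental cells NT5C3B, CDA, NT5M and NT5E followed, with overlap between NT5C3B and CDA and between NT5M and NT5E.

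The order depends on the length that FPKM divides by. The length implied by counts and FPKM was 959 bases for CDA but 10633 bases for NT5C2 and 12480 for SAMHD1. The last 2 are 3.10 and 2.36 times the longest coding transcript of GENCODE release 29 (3435 and 5298 bases). The table lists 23 transcripts for NT5C2 and 22 for SAMHD1, against 2 for CDA. Per kilobase of the longest coding transcript, NT5C2 moved above NT5C in resistant cells (27.6 against 24.7, scaled to library size) and in parental cells (27.8 against 19.1), and NT5C3B above ADA in both. In resistant cells NT5E then stood at 2.79 and CDA at 2.71. Folds between the libraries do not change, since the length cancels.

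Set against the enzyme that starts cytarabine activation, the level of DCK was lower relative to all 10 genes in resistant cells. DCK stood at 10.0 FPKM in resistant cells and 22.9 FPKM in parental cells, a fold of 0.439 (0.417 to 0.462). The ratio of DCK to NT5C2 was 1.13 in resistant cells and 2.55 in parental cells, a fold of 0.443 (0.416 to 0.472), almost all of it from DCK. DCK to NT5C was 0.763 and 2.25 (fold 0.340, 0.309 to 0.374), and DCK to CDA 3.70 and 8.64 (0.428, 0.339 to 0.540). DCK to DCTD was 0.447 in resistant cells and 1.13 in parental cells, and DCK to SAMHD1 0.332 and 0.678. NT5C and DCTD were therefore below DCK in parental cells and above it in resistant cells on the FPKM scale. Such an order depends on the length used, and DCK was not set on the length of its longest coding transcript. The fold of the ratio was lowest for NT5E (0.217, 0.188 to 0.251) and nearest to 1 for NT5M (0.741, 0.567 to 0.969). All 10 ratios share the same DCK values, so their common direction is that of DCK.

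**Figure D4:**
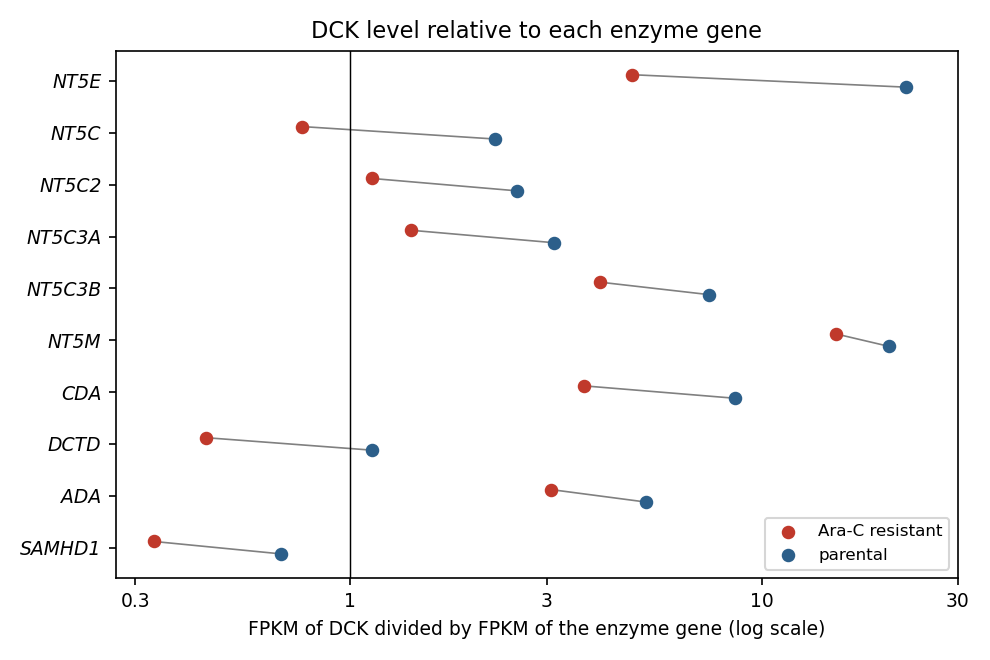
FPKM of DCK divided by the FPKM of each enzyme gene, on a log axis, in resistant cells (red) and parental cells (blue), 1 library each, with a line joining both. The resistant point lies left of the parental point for all 10 genes. For NT5C and DCTD the line crosses 1.

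Of the 6 lists of genes related to the 10 by pathway, 5 had a median log2 ratio between -0.15 and 0.01, and the list of nucleoside phosphorylases and pyrimidine breakdown had -0.47. Of 11 expressed other nucleotidases, 0 were past 2-fold on the higher side and 1 on the lower side of the FPKM + 1 scale, with a median log2 ratio of -0.11, against -0.02 over all expressed genes. That gene was NT5DC2, named for its nucleotidase domain, at 2.77 FPKM in resistant cells and 8.38 FPKM in parental cells (3.01-fold lower by counts, 2.79 to 3.25). ENTPD7, a nucleoside triphosphate diphosphohydrolase of internal membranes, was at 1.55 and 3.23 FPKM (2.07-fold lower, 1.91 to 2.24), and NT5DC1 at 2.41 and 3.48 FPKM. Of 14 expressed other deaminases, 0 passed 2-fold in either direction and the median was -0.10. Of these, 5 lay above 0 and 9 below, but the 3 largest log2 ratios in either direction were on the higher side. ADARB1, an RNA-editing adenosine deaminase, was at 2.35 FPKM in resistant cells and 1.34 in parental cells. ADAT2, a transfer RNA deaminase, was at 6.30 and 4.12, and APOBEC3B, a deaminase of cytosine in single-stranded DNA, at 13.1 and 9.10. By counts APOBEC3F (0.62 and 1.06 FPKM) was 1.69-fold lower (1.43 to 2.01). It was named after its value was seen.

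Of 9 expressed genes that make, carry or sense extracellular adenosine, 0 passed 2-fold on the FPKM + 1 scale and the median was -0.15. DPP4, the surface protein that binds ADA, had 114 counts (0.36 FPKM) in resistant cells and 408 counts (1.30 FPKM) in parental cells, 3.63-fold lower by counts (2.94 to 4.51). BST1, an ectoenzyme that breaks down NAD, was at 13.3 and 17.4 FPKM, and the nucleoside transporter SLC29A1 at 36.5 and 29.4. ENTPD1 (CD39), which supplies AMP to NT5E, was at 3.34 FPKM in resistant cells and 3.26 FPKM in parental cells. It is named as the enzyme directly before NT5E and was chosen after its value was seen.

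The nucleoside phosphorylases and enzymes of pyrimidine breakdown had 4 expressed genes, all below 0, with a median of -0.47. These were PGM2, a phosphopentomutase (21.1 FPKM in resistant cells and 31.1 in parental cells), DPYD, which starts uracil breakdown (4.52 and 6.92), PNP, purine nucleoside phosphorylase (35.8 and 47.9), and TYMP, thymidine phosphorylase (2.96 and 3.90). By counts DPYD was 1.53-fold lower (1.45 to 1.61), the one gene of the 4 past 1.5-fold on that scale; on the FPKM + 1 scale 0 were.

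Of 17 expressed genes of cytarabine activation, transport and the deoxynucleotide pool, 0 passed 2-fold on the higher side of the FPKM + 1 scale. On the lower side 1 did, DCK, and the median was 0.01. TK1, a thymidine kinase, was at 55.2 FPKM in resistant cells and 73.2 in parental cells (1.32-fold lower by counts, 1.28 to 1.37). The transporter SLC29A1 was 1.25-fold higher by counts (1.21 to 1.28). Of 12 expressed regulators of SAMHD1, which include the cyclin-dependent kinases that phosphorylate it, 0 passed 2-fold on the FPKM + 1 scale. Their median was -0.13. CCNA1, a cyclin, was at 3.99 FPKM in resistant cells and 7.50 in parental cells (1.88-fold lower by counts, 1.70 to 2.08). CCNA2, the cyclin that partners the kinases of SAMHD1, was at 43.6 and 54.7 FPKM, and the kinase inhibitor CDKN1A at 7.98 and 5.45 FPKM. The direct kinases CDK1 (28.98 and 30.54 FPKM) and CDK2 (22.3 and 20.7), named after their values were seen, were close in both libraries.

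**Figure D5:**
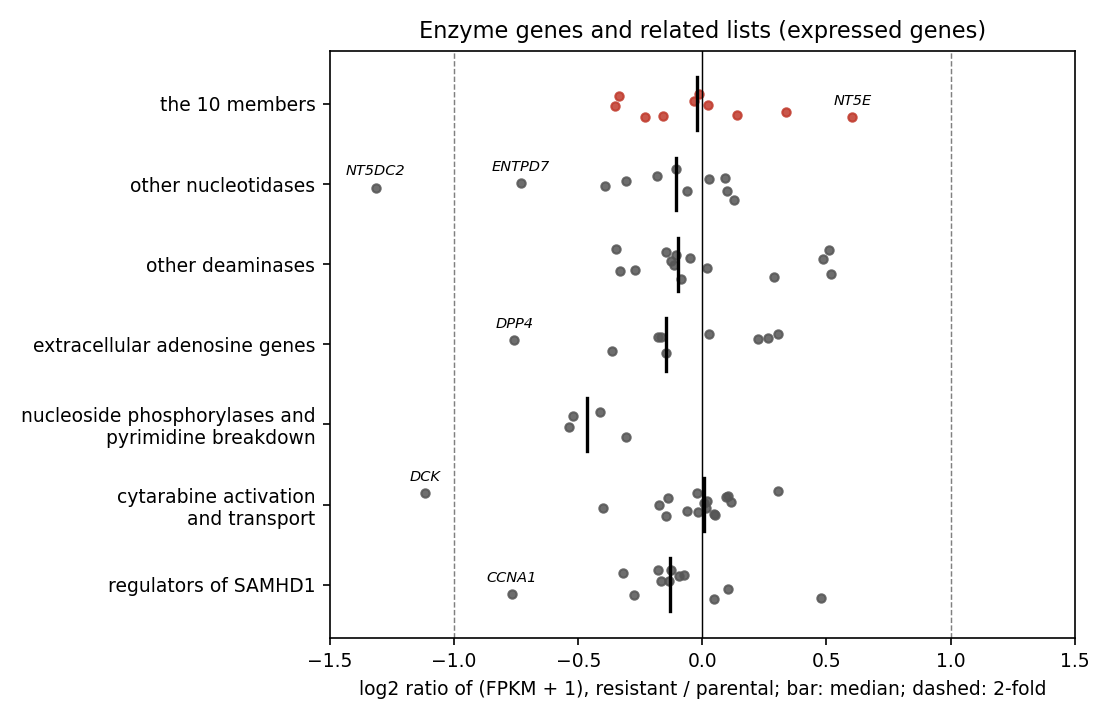
Log2 ratio of (FPKM + 1), resistant over parental cells, for the 10 enzyme genes (red) and the expressed genes of 6 related lists (grey); each point is a gene, black bars are medians and dashed lines mark 2-fold. Genes at least 1.5-fold apart are named. NT5DC2 and DCK lie beyond 2-fold on the lower side, and no gene lies beyond it on the upper side.

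The neighbourhood of each gene on its chromosome was read from the 5 nearest expressed genes on each side, on the FPKM + 1 scale. Around NT5E, 8 of 10 neighbours were above 0 with a median log2 ratio of 0.17, but none reached the 0.60 of NT5E itself; the highest was SNHG5 at 0.42. The neighbours of NT5C had a median of 0.02, with 0 of 10 at or above its 0.34. NT5M (-0.35) had 1 of 10 neighbours at or below it, and the neighbours' median was -0.01. Around DCTD the median was 0.12, near its own 0.14, and around ADA it was -0.01 against -0.34 for ADA.

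Overlapping genes on the other strand could add reads if strand was ignored in counting, which the sources used here do not state, although the libraries kept the strand. CNNM2 overlaps the end of NT5C2 by 3038 bases and had 1628 counts in resistant cells and 815 in parental cells, a fold of 1.97 (1.81 to 2.14), beside the 0.991 of NT5C2. ARMC7 overlaps NT5C by 48 bases, with 630 and 498 counts. Its fold of 1.25 (1.11 to 1.40) was close to that of NT5C, and the part of shared reads in either was not tested. NT5E, NT5C3B, NT5M, CDA, DCTD and ADA overlapped no other gene of the table.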

How the data were processed

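Both libraries came from 1 deposited table. The submitters' processing notes name GRCh38 and the tools StringTie 1.3.4d, HISAT2 2.0.4, cutadapt 1.9, edgeR and DESeq2. The role of each tool, the gene annotation, strand handling and multiply mapped reads are not given in the sources used here. The authors deposited FPKM with 2 decimals, normalised to transcript length and library size, and whole-number read counts, not normalised. The resistant count column has an unexplained suffix in its name. Over 10410 genes with at least 200 counts in each library, its log2 ratios differed from those of FPKM by a median of -0.004 (SD 0.0029), so both were taken as the same library. The design assumed FPKM as the main value; counts were used for folds and intervals.

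Genes with an approved symbol (22577 rows) that reached 1 FPKM in at least 1 library were compared. Differences are log2 ratios with a pseudocount of 1 FPKM, or folds of counts relative to library totals with exact (Clopper-Pearson) 95% intervals, and levels have exact Poisson intervals. Read pairs carry no molecular identifiers, so intervals cover counting error only and may be too narrow. Intervals for ratios of folds used the delta method. The fold computation was tested on simulated counts. Named were all 10 genes, and of each list the 3 expressed genes with the largest absolute log2 ratio and those 1.5-fold apart. Overlapping genes were named from 100 counts. The 10 genes and the lists were chosen with earlier results of these data known. Alternatives covered pseudocount, filter, fold rule and scaling (TMM from edgeR 4.0.16, median of ratios). Coding sequences were aligned with Biopython 1.88. Other software was scipy 1.17.1, numpy 2.4.6 and pandas 2.3.3 in Python 3.11.15, with matplotlib 3.10.9.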

Additional observations from a re-analysis of the deposited data

How the results depend on the processing

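Of 60 recomputed differences of single genes (10 genes under 6 settings), 50 moved by less than their counting error. NT5E moved most: its log2 ratio of 0.60 was 0.23 with a pseudocount of 5 FPKM and 1.04 with TMM scaling of counts, and it stayed above 0 in all 6 settings. NT5M lay between -0.75 and -0.11, and ADA between -0.42 and -0.18. The number of the 10 genes at least 2-fold higher, 0 on the FPKM + 1 scale, was 1 (NT5E) by counts relative to the library total, and 1 when the rule was 1.5-fold. The same 7 genes had a counting interval that excluded equal levels under all 3 scalings, which differed by at most 0.03 (log2). Over the 6 related lists, 2 genes were at least 2-fold lower; this count was 4 with a pseudocount of 0.1 FPKM and 0 with 5 FPKM, by the way the pseudocount acts on low genes. Chosen after the data were seen, the length of the longest coding transcript changed the rank of 6 genes in resistant and 4 in parental cells, and a pseudocount changed the DCK to NT5E fold of 0.217 to 0.304. Depth limits NT5M and CDA, with 89 to 152 counts. No paired analysis was possible because there was 1 library per condition.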

Other observations

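Beyond the fixed lists, the table's own pathway labels gave a wider view, added after the data were seen. Of 77 expressed genes labelled purine metabolism, 7 of them from the 10 described here, 0 were at least 2-fold higher and 1 lower, with a median log2 ratio of 0.01. Of 45 expressed genes labelled pyrimidine metabolism, which include 8 of the 10, 0 were higher and 1 lower, with a median of -0.02. DCK was that gene in both.

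MTAP, the phosphorylase that salvages adenine from methylthioadenosine, had 0 counts in resistant and in parental cells, and a count of 0 allows up to 3 counts in each library. ADORA3, an adenosine receptor below 1 FPKM in both libraries, had 7 counts in resistant and 71 in parental cells. APOBEC3A had 24 counts in resistant cells and 0 in parental cells, against 1691 and 1152 for its neighbour in the family, APOBEC3B. Whether reads were shared between APOBEC3A and APOBEC3B was not tested. MTAP, ADORA3 and APOBEC3A were named after their values were seen.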
